A study of Danio rerio with 4 samples.

Results

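The genes of phototransduction and photoreceptor identity were examined in whole zebrafish retina after a needle-poke injury. They were chosen by symbol, with letter case ignored: opsins, transducins, phosphodiesterase 6, arrestins, opsin kinases, guanylate cyclases and their activators, recoverins, cyclic nucleotide gated channels, retinol dehydrogenases, the transcription factors of rods and cones, and proteins of the outer segment and its matrix. Of 2543 different genes in the 6 deposited tables, 21 had such a symbol, and 14 of these came with expression values. The groups were retina at 12 hr post-injury (hpi), retina at 4 days post-injury (dpi), retina at 4 dpi of fish bathed in 10 μM cyclopamine, an inhibitor of Smo in the Shh pathway, and uninjured retina. All fish were wild type and 10 months old, and the agent given for the 12 hpi, 4 dpi, and uninjured libraries is "none", so no library stands for a vehicle treatment. Each group had 1 library of total RNA, so no difference could be checked against replicates or tested. The number of fish behind a library is not given in the sources used here.

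A rod or cone detects light when an opsin activates transducin, which relieves the inhibition of phosphodiesterase 6. The enzyme breaks down cyclic GMP, and the cyclic nucleotide gated channels of the outer segment close. Recovery needs opsin kinases and arrestins to silence the opsin, the RGS9 complex to silence transducin, and guanylate cyclase with its calcium-sensing activators to restore cyclic GMP. In zebrafish the Müller glia can replace lost rods and cones after injury.

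The tables set what can be said. The 12 hpi and 4 dpi tables hold only the features called by the authors as differing from uninjured retina. They give FPKM, a fragment count scaled to transcript length and library size, of single transcripts at 12 hpi and of genes at 4 dpi. The cyclopamine lists hold identifiers without values. A gene that is in no list may be unchanged, may have missed the authors' threshold, or may have few reads, and these cannot be told apart here. In such bulk samples fewer photoreceptors and less RNA per photoreceptor cannot be told apart either. The same uninjured library is the reference in all 3 comparisons, so a gene listed in several of them rests on 1 uninjured value.

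Photoreceptor genes were mostly listed as lower after injury. At 12 hpi, 8 were listed as lower and 4 as higher, where 36.2% of all 605 listed genes were lower and 63.8% higher. At 4 dpi, 4 were listed as lower and 1 as higher, against 39.1% lower and 60.9% higher of 1466 listed genes. At 4 dpi with cyclopamine, 11 were listed as lower and 1 as higher, against 53.7% lower and 47.1% higher of 1390 listed genes. These shares add up to more than the whole because 12 genes were in both cyclopamine lists. One of them was *arr3b*, a cone arrestin gene, which is counted in both directions here. Genes with high FPKM were more often lower in general. Among listed genes with a mean of at least 10 FPKM over their 2 libraries, 44.8% were lower and 55.2% higher at 12 hpi, and 45.9% lower and 54.1% higher at 4 dpi. Of the photoreceptor genes above this level, 8 of 10 were lower and 2 higher at 12 hpi, and 4 of 5 lower and 1 higher at 4 dpi.

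**Figure D1:**
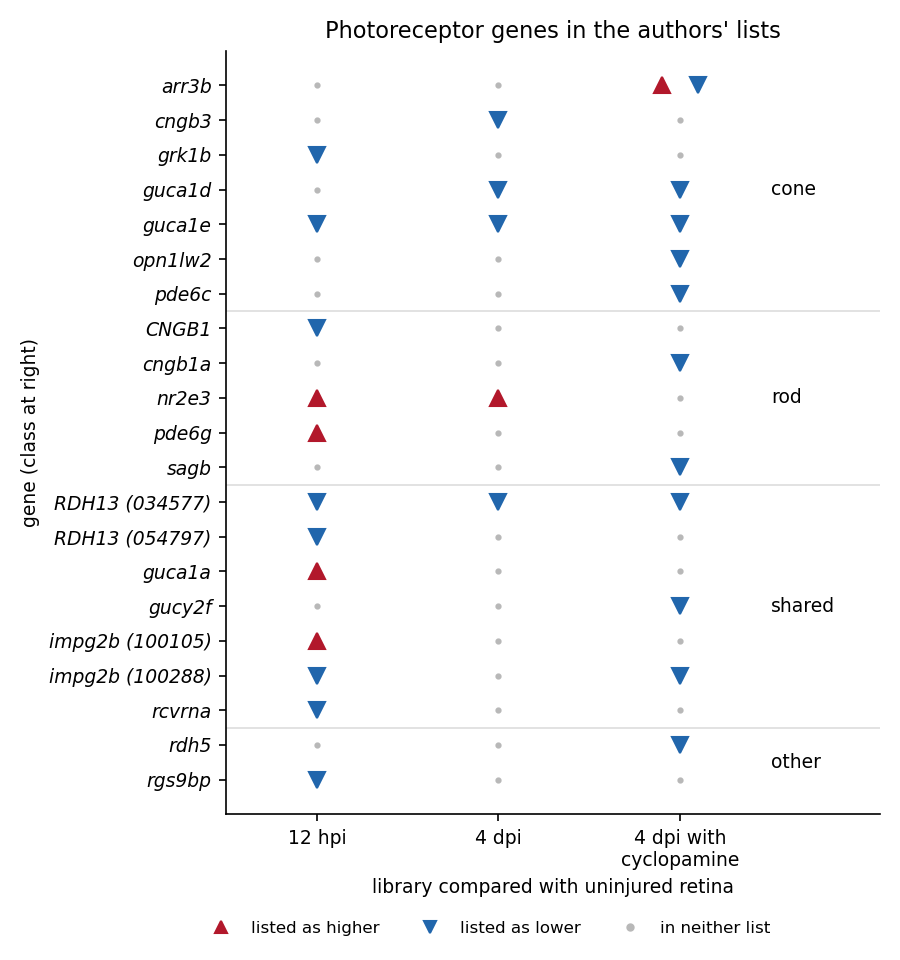
Listing of the 21 photoreceptor genes (rows, grouped by class at the right) in the 3 comparisons with uninjured retina (columns). Upward triangles mark genes listed as higher, downward triangles genes listed as lower, and dots genes in neither list; numbers in brackets are the last digits of the identifier where 2 genes share a symbol. *guca1e* and 1 of the 2 *RDH13* genes were lower in all 3 columns, *nr2e3* was higher at 12 hpi and 4 dpi, and *arr3b* was in both cyclopamine lists.

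In a table of 29201 gene names, 102 identifiers matched the same symbols, and 82 of them were in no list. No cone opsin (0 of 8 identifiers) and no alpha or gamma subunit of transducin (0 of 4) was listed at 12 hpi or at 4 dpi. Beta subunits of transducin are outside the symbol rule and are not in these counts. The identifiers were also grouped by role, a grouping made after the values were seen. Of 23 identifiers for opsins, transducin alpha and gamma, and phosphodiesterase 6, 1 was higher at 12 hpi and none was listed at 4 dpi. Of 28 identifiers for recovery and calcium feedback, 4 were lower and 1 higher at 12 hpi, and 2 were lower at 4 dpi. Of the 11 channel identifiers 1 was lower at each time. Of all identifiers in the table of gene names, 0.702% were lower and 1.16% higher at 12 hpi, and 1.78% lower and 2.76% higher at 4 dpi. Of the 102, 5.88% were lower and 3.92% higher at 12 hpi, and 2.94% lower and 0.98% higher at 4 dpi. All identifiers include many that the retina does not express, so these shares do not have the same base as those of the 102. Against this background the counts by role are too small to set one step of the pathway apart from another.

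The calcium-sensing activators of guanylate cyclase were the family listed most often without cyclopamine, with 3 of 7 identifiers in the 12 hpi or 4 dpi tables. They did not all go the same way. This count pools both times and both directions. At each time alone it was 2 of 7, and the genes of the photoreceptor matrix had 2 of 8 at 12 hpi. The family was singled out by these counts, so its place at the top is no separate result. *guca1e* (chromosome 22, 1075739 to 1092619, plus strand), which zebrafish cones express, had 2 annotated transcripts, and both were listed as lower at 12 hpi. The transcript with the larger mean FPKM had 3.45 FPKM at 12 hpi and 40.6 FPKM in uninjured retina, and the other had 3.61 and 36.5 FPKM. The uninjured values of the 2 transcripts add up to 77.0 FPKM, which is the uninjured value of the gene in the 4 dpi table, so their sum at 12 hpi can stand beside the gene's value at 4 dpi. On that scale *guca1e* had 77.0 FPKM in uninjured retina, 7.07 FPKM at 12 hpi, and 13.6 FPKM at 4 dpi. Its level was thus 10.9-fold lower at 12 hpi and 5.66-fold lower at 4 dpi than in uninjured retina, and it was also in the lower list with cyclopamine.

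A second cone member of the family, *guca1d* (chromosome 21, 22855861 to 22915016, minus strand), had 48.4 FPKM at 4 dpi and 164.9 FPKM in uninjured retina, a 3.41-fold lower level. It was listed as lower with cyclopamine as well, and was in neither 12 hpi list. The third, *guca1a* (chromosome 4, 22622117 to 22630001, plus strand), which has 1 annotated transcript, went the other way. It had 216.9 FPKM at 12 hpi and 60.4 FPKM in uninjured retina, a 3.59-fold higher level, and was not in the 4 dpi lists. At 12 hpi the paralogs *guca1a* and *guca1e* were thus listed in opposite directions, one more abundant and the other less abundant than in uninjured retina. Both symbols are the deposited labels. The table of gene names gives *guca1a* as *guca1aa* and *guca1e* as *GUCA1A*.

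Single transcripts of other genes of recovery were lower at 12 hpi. *grk1b* (chromosome 5, 53514768 to 53550491, minus strand), an opsin kinase gene, had 1 of its 2 annotated transcripts listed. That transcript had 4.45 FPKM at 12 hpi and 53.8 FPKM in uninjured retina. This 12.1-fold lower level was the largest difference among the photoreceptor genes with values above 0 in both libraries, and it ranked 60 among the 219 genes listed as lower at 12 hpi. *rcvrna* (chromosome 3, 49406175 to 49408339, minus strand), a recoverin gene whose product restrains opsin kinases in a calcium-dependent way, was the most abundant photoreceptor gene with values in the uninjured library. Its listed transcript, 1 of 2 annotated, had 63.6 FPKM at 12 hpi and 237.4 FPKM in uninjured retina, a 3.73-fold lower level. Recoverin and the guanylate cyclase activators are related calcium-binding proteins, and 4 of the 14 genes with values carry an EF-hand domain in the deposited annotation.

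*rgs9bp* (chromosome 7, 41023498 to 41032124, plus strand) anchors the RGS9 complex in the outer segment of mammalian photoreceptors. Its listed transcript, 1 of 3 annotated, had 8.57 FPKM at 12 hpi and 32.3 FPKM in uninjured retina, a 3.77-fold lower level. A gene of the same complex outside the symbol rule, *gnb5b*, encodes its G protein beta subunit. Its listed transcript, 1 of 2 annotated, had 39.7 FPKM at 12 hpi and 129.2 FPKM in uninjured retina. Neither *rgs9bp* nor *gnb5b* was in the 4 dpi or cyclopamine lists, and *rgs9* itself was in no list.

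Beta subunits of the cyclic nucleotide gated channel were lower in all 3 comparisons, with a different gene in each. A gene named *CNGB1* after the beta subunit of the mammalian rod channel (chromosome 25, 17411834 to 17455899, minus strand) had 10.4 FPKM at 12 hpi and 46.0 FPKM in uninjured retina, a 4.41-fold lower level of the listed transcript. The table of gene names calls this gene *cngb1b*. *cngb3* (chromosome 24, 31469162 to 31488588, minus strand), the beta subunit of the cone channel, had 10.5 FPKM at 4 dpi and 49.4 FPKM in uninjured retina, a 4.71-fold lower level. With cyclopamine it was *cngb1a* that was listed as lower. No alpha subunit gene was listed.

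**Figure D2:**
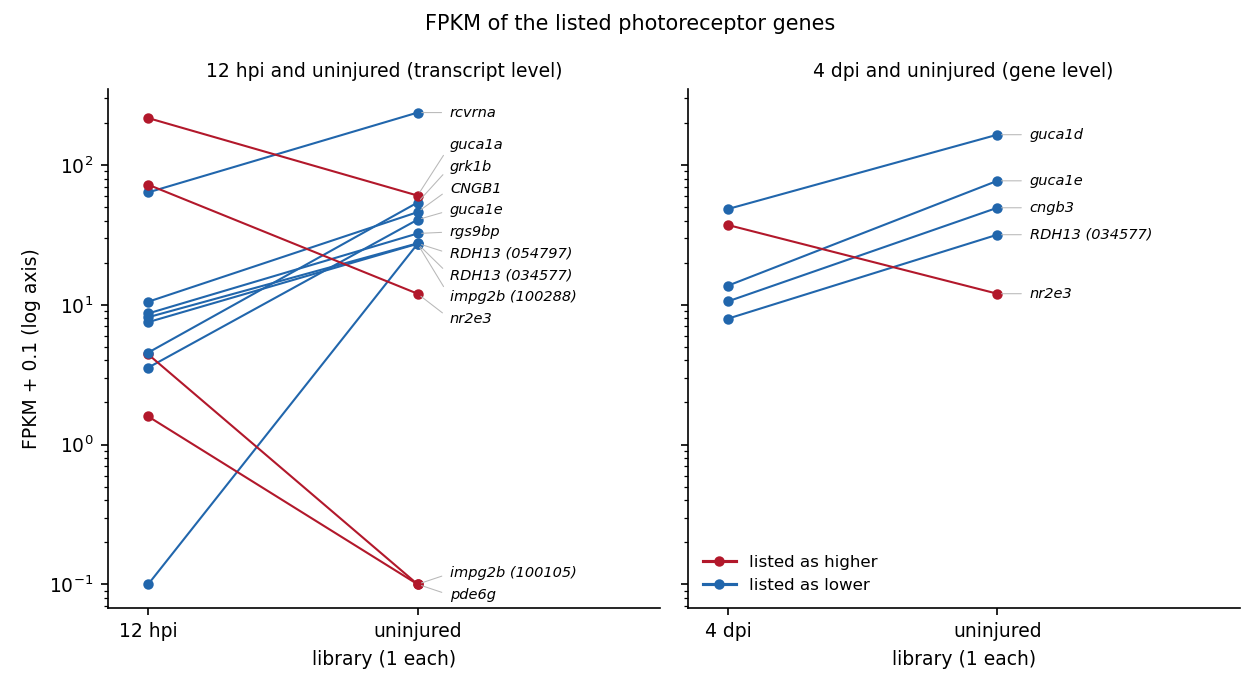
FPKM plus 0.1 (vertical log axis) of the listed photoreceptor genes, 12 at 12 hpi per transcript (left) and 5 at 4 dpi per gene (right), each with the injured library on the left and the uninjured library on the right of the panel. Lines join the 2 values of a gene, red for listed as higher and blue for listed as lower; points at the bottom are genes listed at 0, and most blue lines run between 3 and 14 FPKM after injury and between 27 and 77 FPKM in uninjured retina.

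Of the transcription factors *crx*, *nrl*, *nr2e3*, and *thrb*, *nr2e3* was the only one in any list. It encodes a nuclear receptor that in mice supports rod genes and represses cone genes. *nr2e3* (chromosome 25, 22177093 to 22181107, plus strand) has 1 annotated transcript, so its transcript and gene values share a scale. Its level was 11.9 FPKM in uninjured retina, 72.3 FPKM at 12 hpi, and 37.2 FPKM at 4 dpi. Relative to uninjured retina it was thus 6.07-fold higher at 12 hpi and 3.12-fold higher at 4 dpi, and the 12 hpi value was 1.94 times the 4 dpi value. It was in neither cyclopamine list. Genes whose annotated transcripts were all listed allow the same reading: 33 of 66 genes higher at both times had more FPKM at 12 hpi than at 4 dpi, as did 18 of 31 genes lower at both times, so neither order was general.

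**Figure D3:**
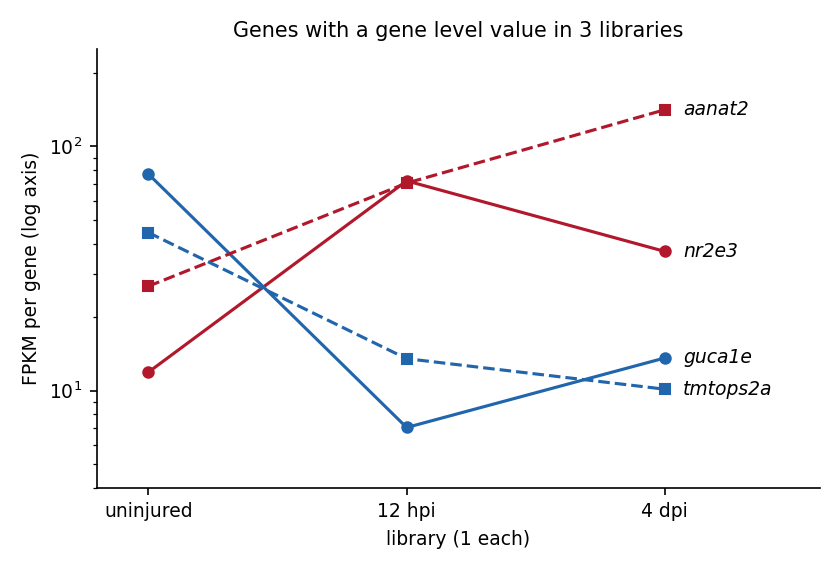
FPKM per gene (vertical log axis) in the uninjured, 12 hpi, and 4 dpi libraries, 1 each, for *nr2e3* and *guca1e* (circles) and for *aanat2* and *tmtops2a* (squares), whose annotated transcripts were all listed. *nr2e3* was highest at 12 hpi with 72.3 FPKM, *guca1e* lowest at 12 hpi with 7.07 FPKM, *aanat2* highest at 4 dpi with 141.3 FPKM, and *tmtops2a* lowest at 4 dpi with 10.1 FPKM.

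A pair of genes was listed under the symbol *RDH13*, a family of retinol dehydrogenases whose products work on the alcohol form of the visual chromophore and on related compounds. The first, ENSDARG00000034577 (chromosome 16, 38159908 to 38167971, minus strand), was lower in all 3 comparisons. Its listed transcript had 7.42 FPKM at 12 hpi and 27.2 FPKM in uninjured retina, and this transcript made up 86.1% of the gene's uninjured value. As a gene it had 7.86 FPKM at 4 dpi and 31.6 FPKM in uninjured retina, a 4.03-fold lower level. The second, ENSDARG00000054797 (chromosome 19, 42848789 to 42855162, minus strand), had 8.05 FPKM at 12 hpi and 27.4 FPKM in uninjured retina and was in no other list. The fold was 3.67 for the listed transcript of the first and 3.41 for the second at 12 hpi. The table of gene names gives both under other names, so that *RDH13* is the deposited label for them.

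3 of the 12 genes at 12 hpi were listed at 0 in a library and give no fold. *impg2b*, for a proteoglycan of the matrix between the photoreceptors, stands for 2 identifiers at the same locus (chromosome 22, 28370670 to 28407930, plus strand). ENSDARG00000100288 was listed at 0 at 12 hpi and had 27.2 FPKM in uninjured retina, and ENSDARG00000100105 had 4.32 FPKM at 12 hpi and was listed at 0 in uninjured retina. Both identifiers carry the same symbol and locus in opposite directions, so the pair gives no direction for *impg2b*. Whether they share reads was not tested. Without the pair, 7 genes were lower and 3 higher at 12 hpi. ENSDARG00000100288 was also in the lower list with cyclopamine. *pde6g* (chromosome 12, 36286267 to 36303393, minus strand), the inhibitory subunit of rod phosphodiesterase, had 1.49 FPKM at 12 hpi for 1 of its 2 annotated transcripts, which was listed at 0 in uninjured retina, and the other transcript was in no table.

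Lower at 4 dpi with cyclopamine than in uninjured retina were *opn1lw2*, a red-sensitive cone opsin gene that appears in 2 rows of the list, *pde6c*, the catalytic subunit of cone phosphodiesterase, *sagb*, an arrestin gene of rods, *gucy2f*, a guanylate cyclase of the outer segment, *cngb1a*, *guca1d*, *guca1e*, the *RDH13* gene ENSDARG00000034577, *impg2b*, and *rdh5*, a retinol dehydrogenase gene best known from the retinal pigment epithelium. Of the 28 identifiers for recovery and calcium feedback, 5 were lower and 1 higher. Of the 102 identifiers 10.8% were lower and 0.98% higher, against 2.26% lower and 2.04% higher of all identifiers in the table of gene names. The cyclopamine lists repeat identifiers, as a list of transcripts would, and hold no values, so the libraries at 4 dpi with and without cyclopamine were not compared, and a gene listed in only 1 of these comparisons is not shown to differ between them.

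Split by cell type, the 4 dpi lower genes were 3 of cones (*cngb3*, *guca1d*, and *guca1e*) and 1 shared gene, the *RDH13* gene ENSDARG00000034577. The 1 higher gene, *nr2e3*, was on the rod list. A gene outside the symbol rule that had been put on the cone list, *si:busm1-57f23.1*, is not in these counts. It was higher at 4 dpi, with 182.3 FPKM against 46.3 FPKM in uninjured retina, and higher with cyclopamine. With it, the cone list had 1 gene higher and 3 lower at 4 dpi. At 12 hpi, 2 cone genes (*grk1b* and *guca1e*), 4 shared genes, the *CNGB1* gene, and *rgs9bp* were lower, and *nr2e3*, *pde6g*, *guca1a*, and 1 *impg2b* identifier were higher. The symbols *CNGB1* and *pde6g* were placed with the rod genes after their listing was seen. Under its other name, *cngb1b*, the *CNGB1* gene was already on the rod list. With cyclopamine, 5 cone genes (*arr3b* included), 2 rod genes, 3 shared genes, and *rdh5* were lower. These counts are too small to set rods against cones, and no test of that difference was made.

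The size of the differences was close to that of other listed genes. Only features called by the authors are listed, so their threshold sets part of this size for both. The 8 genes lower at 12 hpi had a median of -2.02 for the log2 ratio of injured to uninjured retina, taken with 0.1 FPKM added to both, where all 219 genes listed as lower had -2.13. The 4 lower at 4 dpi had a median of -2.11, against -1.94 over all 573. Their uninjured levels were higher than usual for the tables: the median in uninjured retina was 36.4 FPKM for the 8 genes and 18.6 FPKM for all lower genes at 12 hpi, and 63.2 FPKM for the 4 genes and 24.4 FPKM for all lower genes at 4 dpi. Over both directions the median log2 ratio was -1.88 for the 12 photoreceptor genes and 2.16 for all listed genes at 12 hpi. At 4 dpi it was -2.00 for the 5 photoreceptor genes and 1.95 for all listed genes. Leaving out the 3 genes at 0 gave -1.90 at 12 hpi, against 1.84 for all listed genes above 0 in both libraries. Genes with small ratios were mostly not listed, so a median over both directions falls on the side with more listed genes. These medians thus restate the counts of higher and lower genes and are no separate result on size.

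**Figure D4:**
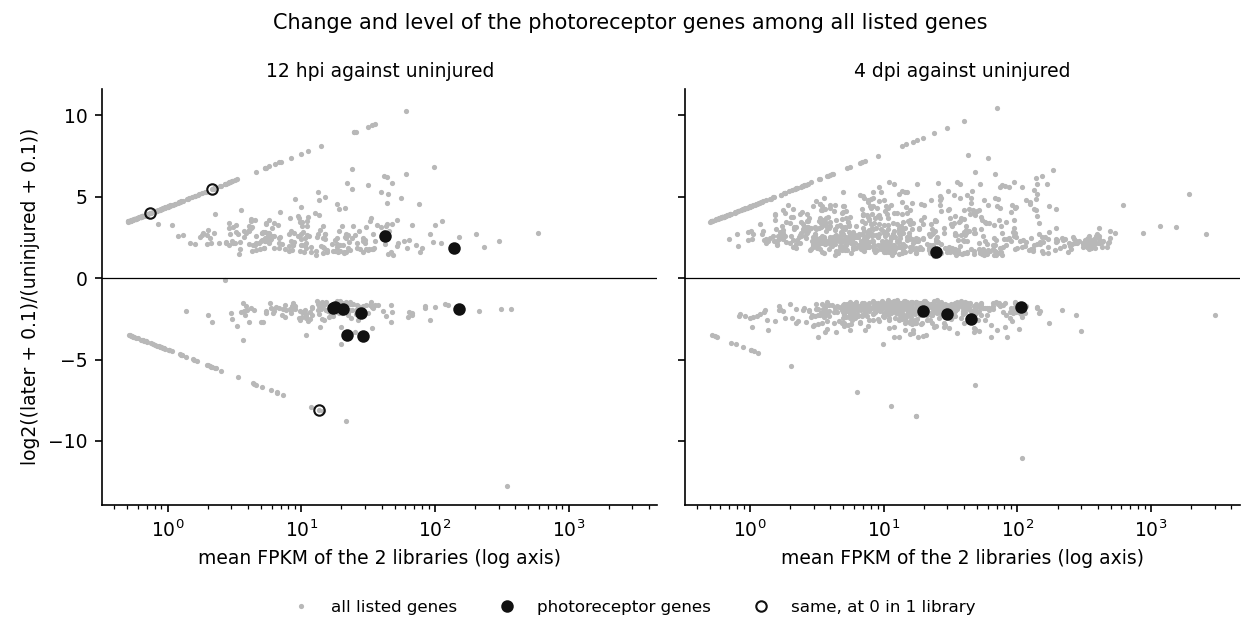
Log2 ratio of the injured to the uninjured library with 0.1 FPKM added (vertical axis) against the mean FPKM of the 2 libraries (horizontal log axis) at 12 hpi (left) and 4 dpi (right), with grey points for all listed genes and black points for photoreceptor genes. Open circles are photoreceptor genes at 0 in 1 library; apart from these the black points lie above about 10 FPKM, mostly in the band of lower genes, and the almost empty band around 0 is where genes were not listed.

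Photoreceptor genes outside the symbol rule were counted from a list of 58 genes. At 12 hpi, 5 were lower and none higher, where 0.702% of all identifiers with a gene name were lower and 1.16% higher. *cacna2d4a*, for an auxiliary subunit of the calcium channel at photoreceptor synapses, was listed under 2 identifiers, with 3.06 FPKM at 12 hpi and 24.8 FPKM in uninjured retina for ENSDARG00000026855 and 2.73 and 17.0 FPKM for ENSDARG00000103810. *fscn2a*, an actin-bundling protein of photoreceptors, had 9.97 FPKM at 12 hpi and 30.8 FPKM in uninjured retina. The others were *gnb5b* and *prom1a*, which was listed at 0 at 12 hpi for 1 of its 10 annotated transcripts and had 1.03 FPKM in uninjured retina. With cyclopamine *gnb3b*, a G protein beta subunit of cones, and *ckmt2a*, a creatine kinase gene, were among those listed as lower, and *tbx2b* and *prom1b* were listed as higher.

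Opsins outside rods and cones were listed only as lower. Of 27 such genes, 1 was lower at 12 hpi, 3 at 4 dpi, and 3 with cyclopamine, and none was higher, where 0.702%, 1.78%, and 2.26% of all identifiers in the table of gene names were lower. *tmtops2a*, a teleost opsin found in many tissues, was in each of these lists, with 44.4 FPKM in uninjured retina, 13.5 FPKM at 12 hpi, and 10.1 FPKM at 4 dpi. *valopa* had 1.66 FPKM at 4 dpi and 7.22 FPKM in uninjured retina, and *opn8c* had 0.604 and 2.69 FPKM. *aanat2*, which makes the melatonin precursor in photoreceptors and the pineal gland and is known to follow the daily clock, was the 1 gene of 12 on the pineal and melatonin list to be listed. It was higher in all 3 comparisons, with 26.8 FPKM in uninjured retina, 70.8 FPKM at 12 hpi, and 141.3 FPKM at 4 dpi. The hour at which retinas were collected is not given in the sources used here. Hour and injury thus cannot be told apart for these genes or for the photoreceptor genes above.

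Markers of other cells were listed with them. Of 26 genes of the visual cycle and the retinal pigment epithelium, none was listed at 12 hpi or 4 dpi, and with cyclopamine *rdh5* and *rgra* were lower and *pmelb*, a pigment cell gene, was higher. Both lower genes were already counted above, *rdh5* among the photoreceptor genes and *rgra* among the opsins outside rods and cones. Of 15 Müller glia genes, 4 were higher at 4 dpi. *gfap*, a glial filament gene, had 84.5 FPKM at 4 dpi and 10.2 FPKM in uninjured retina, *vim* had 95.6 and 15.7 FPKM, *fabp7a* had 1191 and 52.0 FPKM, and *apoeb* had 2111 and 233.6 FPKM. The same 4 were higher with cyclopamine. At 12 hpi 1 Müller glia gene was listed, *slc1a2b*, for 1 of its 3 annotated transcripts. That transcript was lower, with 16.0 FPKM at 12 hpi and 66.0 FPKM in uninjured retina. Of 38 genes of inner retinal neurons, 2 were lower and 1 higher at 12 hpi, 1 lower and 3 higher at 4 dpi, and 1 lower and 1 higher with cyclopamine. Of all identifiers with a gene name, 0.702% were lower and 1.16% higher at 12 hpi, and 1.78% lower and 2.76% higher at 4 dpi. With cyclopamine 2.26% were lower and 2.04% higher. These identifiers include many that the retina does not express. The part of these other cells in the photoreceptor values was not tested.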

How the data were processed

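The authors deposited FPKM values from total RNA of whole retina beside those of the uninjured library, by transcript at 12 hpi and by gene at 4 dpi, and gene lists without values for 4 dpi with cyclopamine. The submitters' processing notes name TopHat2 2.1.0, Bowtie2 2.2.2, Cufflinks 2.2.1, and the genome build GRCz10. How the libraries were scaled to each other and how many reads they hold is not given in the sources used here, so no interval is given. The tables hold only features that the authors called, and their own log2 fold changes, p-values, and q-values were not used. Coordinates are the loci of the tables, which can span more than 1 gene and whose first base may be numbered 0 or 1.

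Genes were chosen by symbol, ignoring letter case. A gene with several listed transcripts was represented by the one with the largest mean FPKM (3 genes at 12 hpi have transcripts in both directions, none of them a photoreceptor gene). The ratio was log2((later FPKM + 0.1)/(uninjured FPKM + 0.1)), and genes at 0 got no fold. Folds in the text are ratios of FPKM without the added 0.1. Names were matched to a table with 29201 identifiers. All photoreceptor genes found by the symbol rule are named, along with most of the listed genes of the other lists apart from those of inner retinal neurons. Promoter motifs were not analysed here, and a few listed genes are not reported here. The members and lists were chosen with earlier results of these data known. The cystatin gene *si:busm1-57f23.1*, which had been put on the cone list, was not counted with the cone genes. Its direction was opposite to that of the cone genes listed at 4 dpi. No test was possible with 1 library per group. Alternatives were a pseudocount of 1 or none, the sum of the listed transcripts, a log2 ratio of 2 or more in size, a minimum of 5 FPKM, counting every row, and the rod, cone, and shared lists alone. Python 3.11.15 with pandas 2.3.3 was used, and the ratios were tested on simulated data.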

Additional observations from a re-analysis of the deposited data

How the results depend on the processing

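The counts of photoreceptor genes depended on the threshold. With a log2 ratio of 2 or more in size, 4 genes in place of 8 were lower at 12 hpi, 2 in place of 4 were lower at 4 dpi, and 0 in place of 1 were higher at 4 dpi. With a minimum of 5 FPKM in the library with more, 2 in place of 4 were higher at 12 hpi. Keeping the letter case of the symbol rule, which was tried only once the data had been seen, left 5 lower genes at 12 hpi, without the *RDH13* and *CNGB1* genes. Removing the suffix of symbols and leaving out *impg2b*, both likewise chosen afterwards, counting every row, and using the rod, cone, and shared lists alone kept each count within 1.5 times. The median log2 ratio over both directions moved by less than 1.5-fold with a pseudocount of 1, with none, and with summed transcripts. For single genes, the 3 log2 ratios that moved were those of the genes at 0, with a pseudocount of 1, and none changed sign, which a pseudocount cannot do.

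No paired analysis was possible because every group is a single library. Depth is unknown, which limits the genes of low FPKM most, such as *pde6g*.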
